A study of Mus musculus with 8 samples.

Results

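The lysyl oxidase family was examined in retinas of mice labelled WT or Kv8.2 KO, Kv8.2 being the potassium channel subunit encoded by Kcnv2. Its 5 genes, Lox, Loxl1, Loxl2, Loxl3 and Loxl4, were taken by symbol from the 26824 genes of the deposited count table. The family was selected on the rise of Loxl4 in the comparison of KO with WT, so the values of Loxl4 in that comparison are a description and carry no test. All 5 genes passed the filter on low counts, as did 20167 genes of the table.

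There were 3 WT and 5 KO libraries, from untreated mice at 1 month of age, and each library held the 2 retinas of one mouse. The libraries are called by their labels, WT 1 to WT 3 and KO 2 to KO 6. The sources used here give neither the strain nor the kind of allele. The authors state that they left 2 KO samples out without naming them, and all 8 libraries were used here. Library totals were 17759146 to 25188870 counts.

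The labels were checked first. Kcnv2 was present in every library, at 519 to 551 counts per 1000000 scaled counts (CPM) in WT and at 585, 447, 398, 409 and 409 CPM in KO 2 to KO 6. KO 3 to KO 6 lay below every WT library, whereas the library labelled KO 2 lay above every WT library. Over all libraries the log2 fold change of Kcnv2 was -0.24 (SE 0.14, edgeR adjusted p 0.275), which did not pass. Every KO library kept the transcript and the kind of allele is not given, so the Kcnv2 level settles no label. Every direction drawn from KO 2, alone or with KO 3, rests on the label of KO 2. On the first principal component, which held 39.5% of the variance, KO 4, KO 5 and KO 6 stood apart from the other libraries. On the second, which held 16.7%, KO 2 and KO 3 were at -54.5 and -31.7. The WT libraries were at 22 to 27.2 there, and KO 4 to KO 6 at 0.1 to 9.3. Lens marker transcripts made up 4.01% of the KO 3 counts against at most 0.115% in the other libraries. Mitochondrial transcripts made up 7.09% to 7.92% of the counts in WT, 6.52% in KO 2, 5.23% in KO 3 and 3.03% to 3.70% in KO 4 to KO 6. The part of this difference in the KO values was not tested. Because of these differences between libraries, every member is also given for KO 2 and KO 3 against WT and for KO 4 to KO 6 against WT. Rod marker genes were abundant in every library, with a summed level of 33290 to 49495 CPM.

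Lysyl oxidases are secreted, copper-dependent amine oxidases. They oxidise lysine side chains of collagens and elastin to aldehydes, which then react with each other to form the covalent cross-links that give matrix its strength. Lox is the founding member and Loxl1 is tied to elastic fibre upkeep. Loxl2, Loxl3 and Loxl4 carry scavenger receptor cysteine-rich domains before the shared catalytic domain, and Loxl2 is known for cross-linking basement membrane collagen IV. In the eye these enzymes are known from sclera, cornea, lens capsule and vessel walls.

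The sequence before the start of Loxl4 is shown because Loxl4 is the member that set the family apart. It is the stretch of 250 bases upstream of the RefSeq start (GRCm38.p6, chr19:42612807-42613056, minus strand), with matches to the searched motifs in capitals.
Loxl4: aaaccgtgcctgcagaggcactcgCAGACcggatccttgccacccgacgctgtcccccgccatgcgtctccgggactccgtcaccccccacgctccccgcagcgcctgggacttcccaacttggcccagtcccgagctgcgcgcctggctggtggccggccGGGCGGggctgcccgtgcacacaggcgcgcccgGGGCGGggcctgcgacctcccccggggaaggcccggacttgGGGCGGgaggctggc

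This stretch was 76.0% G and C, against a median of 52.4% over 32851 RefSeq promoters cut to the same length. Both strands were searched for 5 motifs, which did not overlap. The GC box GGGCGG occurred 3 times, starting 89, 56 and 15 bases before the start, and 32.7% of the promoters held it at least once. The CAGAC letters of the SMAD box occurred once, and 42.2% of promoters held them. The TATA box TATAAA, the hypoxia response core ACGTG and the STAT pattern TTCNNNGAA had no match, and 12.4%, 16.6% and 7.02% of promoters held these letters. The matches describe the letters only.

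The genes lie on different chromosomes of the GRCm38 build that the submitters' processing notes name, with positions from GENCODE M21. Lox is at chromosome 18, 52516067 to 52529867. Loxl1 is at chromosome 9, 58287738 to 58313186. Loxl2 is at chromosome 14, 69609068 to 69695834. Loxl3 is at chromosome 6, 83034173 to 83052562. Loxl4 is at chromosome 19, 42593982 to 42612813, on the minus strand, with 15 exons in its longest coding transcript. Kcnv2 is on the same chromosome, 15.3 Mb away.

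Loxl4 was low in every WT retina and several-fold higher in every KO retina. It had 16, 30 and 27 counts in WT 1 to WT 3, or 0.877, 1.41 and 1.20 CPM. In KO 2 to KO 6 it had 241, 171, 226, 217 and 189 counts, or 10.5, 8.13, 11.1, 11.1 and 8.61 CPM. The lowest KO library lay far above the highest WT library, and the groups did not overlap. The mean went from 1.16 ± 0.269 CPM over the WT libraries (SD, n = 3) to 9.88 ± 1.42 CPM over the KO libraries (SD, n = 5). The fitted log2 fold change was 3.07 (SE 0.21), an 8.42-fold higher level. In a bulk retina, more cells of a type that expresses Loxl4 and more Loxl4 RNA per cell cannot be told apart.

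**Figure D1:**
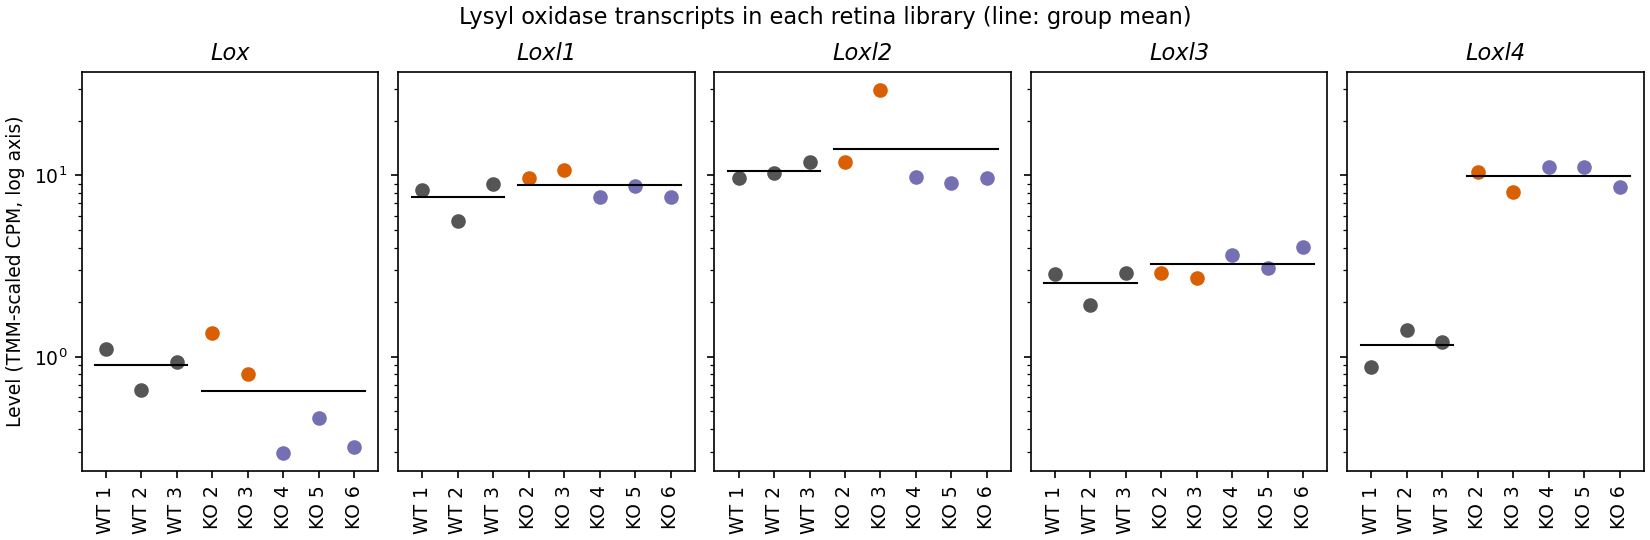
Level of each lysyl oxidase gene (TMM-scaled CPM, log axis) in the 3 WT (grey), KO 2 and KO 3 (orange) and KO 4 to KO 6 (violet) libraries, with a line at each group mean. Loxl4 lies between 0.877 and 1.41 CPM in WT and between 8.13 and 11.1 CPM in KO, while KO 3 is high for Loxl2 and KO 4 to KO 6 are low for Lox.

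The size of the Loxl4 difference was alike in both sets of KO libraries. Its log2 fold change was 2.99 (SE 0.25) for KO 2 and KO 3 against WT and 3.14 (SE 0.20) for KO 4 to KO 6 against WT. The comparisons share the WT libraries. Without KO 2, the log2 fold change of KO against WT was 3.05 for Loxl4, -0.91 for Lox, 0.19 for Loxl1, 0.45 for Loxl2 and 0.40 for Loxl3. Among the 956 genes called higher over all libraries, Loxl4 ranked 15 by log2 fold change. None of its 31-base words (31-mers) occurs in another annotated gene, so its counts are not shared with a near-identical copy.

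The other family members did not pass the test. With edgeR's quasi-likelihood test over all genes and a Benjamini-Hochberg adjusted p under 0.05, 1 of the 5 members was called, which was Loxl4. Over all tested genes 7.58% were called, 4.74% higher and 2.84% lower. The groups were apart without overlap for 1 of the 5 members, again Loxl4, and for 20.9% of all tested genes. As Loxl4 chose the family, nothing is read from these counts. None of the other 4 members had an unadjusted p under 0.05 in edgeR or in DESeq2, and limma voom with quality weights called 1 of them, Lox, where it called 8248 of all 20167 genes.

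Lox, the founding enzyme, had the lowest mean level of the members in both groups, with 14 to 21 counts in WT and 6 to 31 in KO. It was at 1.1, 0.658 and 0.933 CPM in WT 1 to WT 3, and at 1.35, 0.808, 0.295, 0.460 and 0.319 CPM in KO 2 to KO 6. KO 2 was the highest of all libraries, and KO 4, KO 5 and KO 6 lay below every WT library. Over all libraries Lox had a log2 fold change of -0.45 (SE 0.50, edgeR adjusted p 0.591). This value ranged from -0.91 without KO 2 to -0.27 without KO 4 when each library was left out. It was 0.27 (SE 0.43, edgeR adjusted p 0.767) for KO 2 and KO 3 against WT. For KO 4 to KO 6 it was -1.30 (SE 0.42, edgeR adjusted p 0.0257). In that last comparison 42.8% of all tested genes were called, against 0.891% for KO 2 and KO 3. The 6 counts of KO 4 have an exact 95% Poisson interval of 2.20 to 13.1, which covers counting error only.

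The summed level of fibroblast marker genes was lowest in the same 3 libraries as Lox, though single markers differed. It was 64.9 to 76.2 CPM in WT, 82.6 CPM in KO 2, 130 CPM in KO 3, and 30.4, 44.2 and 32.5 CPM in KO 4 to KO 6. Of the 6 listed markers 5 were tested, none was called over all libraries in edgeR or DESeq2 (0 with an unadjusted p under 0.05), and limma voom called 4 lower. In KO 4 to KO 6 against WT edgeR called 4 lower. These calls stand beside 8248 of 20167 genes called in limma voom and 42.8% of genes in KO 4 to KO 6. None of the markers was at 0 counts in any library. Fmod, a small collagen-binding proteoglycan, was at 29.3 to 37.6 CPM in WT and at 9.85, 21.1 and 10.6 CPM in KO 4 to KO 6. Dcn, a proteoglycan of connective tissue, ranged from 0.182 to 1.21 CPM over the libraries. Pdgfra, a receptor of mesenchymal cells, was at 15.0 to 17.4 CPM in WT and at 15.0, 17.2 and 17.9 CPM in KO 4 to KO 6, so it was not lower there. The high sum of KO 3 came mainly from Ogn, a small matrix proteoglycan, at 59.9 CPM against 0.866 to 15.4 CPM in the other libraries. The part of these cells in the Lox values was not tested.

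Loxl1, the elastic fibre enzyme, was at 8.28, 5.60 and 8.93 CPM in WT 1 to WT 3 and at 9.68, 10.7, 7.58, 8.69 and 7.61 CPM in KO 2 to KO 6. The groups overlapped, with WT 2 lowest and KO 3 highest. The fitted difference of Loxl1 was 0.22 on the log2 scale (SE 0.19, edgeR adjusted p 0.473), and 0.05 without WT 2 and 0.35 without WT 3. After correction for GC content it was -0.0004, against 0.21 without correction over the same genes. It was 0.42 (SE 0.21) for KO 2 and KO 3 and 0.08 (SE 0.17) for KO 4 to KO 6, and neither passed.

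Loxl2, the enzyme known for collagen IV, was level across the libraries except in KO 3. It was at 9.70, 10.3 and 11.9 CPM in WT 1 to WT 3 and at 11.9, 29.4, 9.85, 9.10 and 9.66 CPM in KO 2 to KO 6. Its fitted log2 difference of 0.39 (SE 0.37, edgeR adjusted p 0.519) became -0.063 without KO 3. It was 0.95 (SE 0.32, edgeR adjusted p 0.175) for KO 2 and KO 3 against WT and -0.15 (SE 0.12, edgeR adjusted p 0.355) for KO 4 to KO 6. KO 3 was also the library with lens transcripts. Its 10 lens markers summed to 41125 CPM, against 18.5 to 1166 CPM in WT and 0.820 to 158 CPM in the other KO libraries.

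Lens capsule is a thick basement membrane, and collagen IV genes had the same outlying library. Col4a1 was at 640 CPM in KO 3, at 26.6 to 30.6 CPM in WT, at 31.6 CPM in KO 2 and at 43.5 to 47.0 CPM in KO 4 to KO 6. Every KO library thus lay above every WT library. For KO 4 to KO 6 against WT its log2 fold change was 0.69 (edgeR adjusted p 2.32e-05). In that comparison 4 of the 16 listed collagen genes were called higher and 7 lower, and 42.8% of all genes were called. Col4a2 was at 328 CPM in KO 3 and at 22.3 to 36.0 CPM in the others. Of the 10 lens markers, 5 had 0 counts in some library, among them Cryaa, a lens crystallin, in KO 6. The part of lens RNA in the Loxl2 value of KO 3 was not tested.

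Some reads of Loxl2 could be counted under another gene. Of its 31-mers 46.2% occur in another annotated gene, mostly in the pseudogene Gm21451, which had 0 to 40 counts in a library. An antisense gene, Gm27177, shares 301 exonic bases with it and had 19 to 322 counts. Whether counting used strand is not given in the sources used here.

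Loxl3, which is known for a role in palate and spine development, was at 2.85, 1.93 and 2.89 CPM in WT 1 to WT 3. In KO 2 to KO 6 it was at 2.91, 2.71, 3.64, 3.07 and 4.01 CPM. The groups overlapped through KO 3, and the other 4 KO libraries lay above every WT library. KO 2 and WT 3 were nearly level, from 67 and 65 counts with overlapping exact 95% Poisson intervals (51.9 to 85.1 and 50.2 to 82.8). The fitted log2 difference was 0.36 (SE 0.22, edgeR adjusted p 0.314) over all libraries, and 0.20 without WT 2. It was 0.14 (SE 0.27, edgeR adjusted p 0.820) for KO 2 and KO 3 against WT and 0.50 (SE 0.22, edgeR adjusted p 0.0918) for KO 4 to KO 6. Loxl3 shares 535 exonic bases with Htra2 on the other strand, and Htra2 had 362 to 603 counts.

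**Figure D2:**
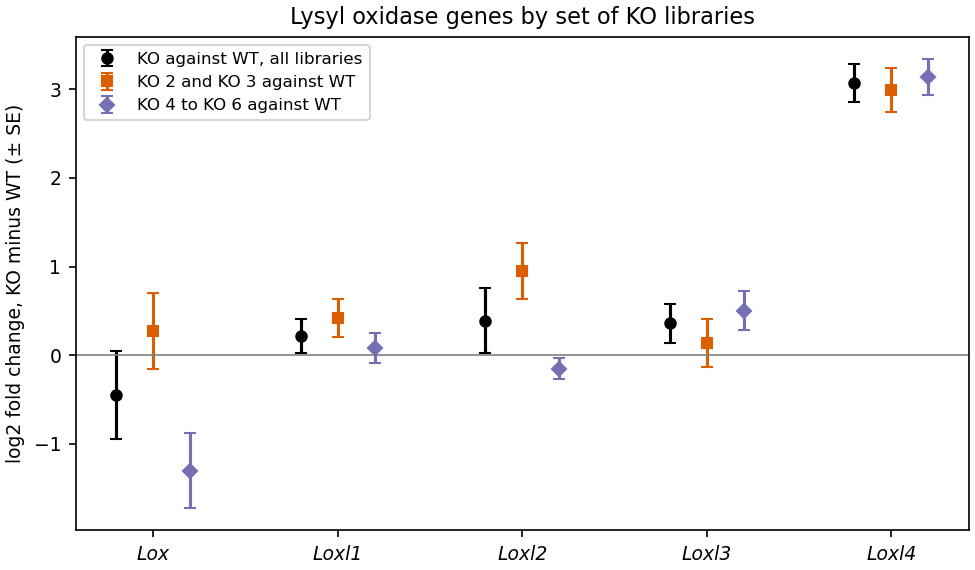
Log2 fold change (KO minus WT, with its SE) of each member over all libraries, for KO 2 and KO 3 against WT and for KO 4 to KO 6 against WT. Loxl4 lies at 2.99 to 3.14 in the 3 comparisons, whereas Lox and Loxl2 lie on different sides of 0 in KO 2 and KO 3 and in KO 4 to KO 6.

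**Figure D3:**
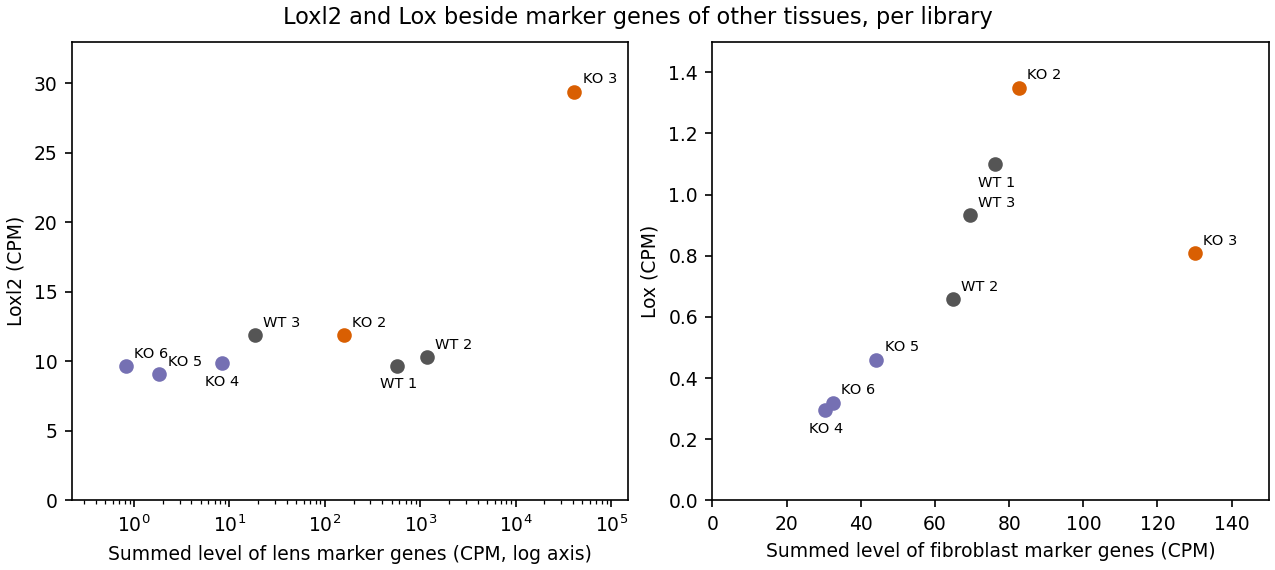
Loxl2 against the summed level of lens marker genes (log axis) and Lox against that of fibroblast marker genes, both in CPM, one point per library. KO 3 is alone at 29.4 CPM of Loxl2 and 41125 CPM of lens markers, and KO 4 to KO 6 have the lowest values of both Lox and fibroblast markers.

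Per kilobase of the longest coding transcript, the order of the members differed between the groups. In WT, Loxl1 was at 2.31 ± 0.536 and Loxl2 at 2.0 ± 0.208 CPM per kb (SD, n = 3), and these levels did not differ beyond their spread. Loxl3 followed at 0.623 ± 0.133, Loxl4 at 0.311 ± 0.0719 and Lox at 0.189 ± 0.0467 CPM per kb, with no overlap between the libraries of neighbours in this order. Loxl4 and Lox were nearly level in WT 1, at 0.235 and 0.231 CPM per kb from 16 and 20 counts. The exact 95% Poisson intervals of these counts, 9.15 to 26.0 and 12.2 to 30.9, overlapped. In KO, Loxl1 was at 2.68 ± 0.409, Loxl4 at 2.64 ± 0.379 and Loxl2 at 2.63 ± 1.63 CPM per kb (SD, n = 5), and these 3 did not differ beyond their spread. The Loxl2 mean rested on KO 3 at 5.53 CPM per kb, and in the other 4 KO libraries Loxl2 was at 1.71 to 2.24, below Loxl4 at 2.30 to 2.98 CPM per kb. Loxl3 was at 0.797 ± 0.132 and Lox at 0.136 ± 0.0932 CPM per kb. Loxl4 made up 4.27% to 8.13% of the summed level per kb of the family in WT. It made up 18.5% to 36.9% in KO, lowest in KO 3.

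The summed level of the 4 members other than Loxl4 was 5.12 ± 0.801 CPM per kb in WT (SD, n = 3) and 6.25 ± 1.92 CPM per kb in KO (SD, n = 5). The ranges, 4.26 to 5.84 and 5.10 to 9.60, overlapped.

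Genes that act with lysyl oxidases came from 8 lists of 96 genes, of which 90 were tested. The lists were written with earlier results of these data known. EdgeR called 9 higher and 3 lower, or 13.3%, against 7.58% of all tested genes. All 12 were also called for KO 4 to KO 6 against WT, where 42.8% of all genes were called and which shares its libraries with the whole comparison. Only Pcolce was called for KO 2 and KO 3 (edgeR adjusted p 0.0285), against 0.891% of all genes, and the others had edgeR adjusted p-values of 0.0664 to 0.260. The number of companion genes called moved with that of all genes when a library was left out. Leaving out WT 1, WT 2 or WT 3 left 0 companion genes called in edgeR, with 132, 135 and 199 genes called in all, against 1529 with every library. Leaving out KO 4, KO 5 or KO 6 left 2, 1 and 1 called higher and 0, 0 and 1 called lower, with 365, 388 and 531 genes called in all. Without KO 2 there were 12 higher and 5 lower of 2781 genes called, and without KO 3 there were 13 higher and 8 lower of 3992.

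Genes of proenzyme and procollagen processing had a median log2 fold change of 0.39, against 0.001 for all tested genes, and 3 of 8 were called higher. Pcolce encodes an enhancer of the proteinase that trims procollagens. It was at 8.61, 8.79 and 8.84 CPM in WT 1 to WT 3 and at 15.1, 17.7, 43.2, 33.5 and 35.4 CPM in KO 2 to KO 6. Every KO library was above every WT library, KO 4 to KO 6 most, and the log2 fold change was 1.73 (SE 0.33, edgeR adjusted p 0.0180). Bmp1, the proteinase that also releases the active form of Lox from its proenzyme, rose from 12.3 ± 0.920 CPM (SD, n = 3) to 18.8 ± 3.22 CPM (SD, n = 5). On the log2 scale Bmp1 rose by 0.61 (SE 0.16, edgeR adjusted p 0.0449), and after correction for GC content the adjusted p was 0.140. Adamts3, a procollagen N-proteinase, rose by 0.41 on the log2 scale (SE 0.11, edgeR adjusted p 0.0457).

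Among elastic fibre and microfibril genes, 1 of 16 was called higher and the median log2 fold change was -0.10. Emilin1, a glycoprotein of elastic fibres, was at 1.5 to 2.04 CPM in WT and at 2.61 to 6.09 CPM in KO. Its log2 fold change was 1.30 (SE 0.28, edgeR adjusted p 0.0271), and the adjusted p was 0.0636 after GC correction. Eln, the elastin substrate itself, averaged 11.2 ± 0.564 CPM over 3 WT and 11.3 ± 0.950 CPM over 5 KO libraries (SD), with a log2 fold change of 0.01 (SE 0.12). In KO 4 to KO 6 against WT, 8 genes of this list were called lower and 4 higher, where 42.8% of all genes were called. Mfap4, a microfibril protein, was at 13.7 to 17.6 CPM in WT, at 20.7 CPM in KO 2, at 14.1 CPM in KO 3, and at 4.28, 7.51 and 2.51 CPM in KO 4 to KO 6. The drop of Mfap4 in KO 4 to KO 6 thus fell in the same libraries as the low Lox and the low fibroblast markers.

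None of the 16 collagen genes was called over all libraries in edgeR, where 4 had an unadjusted p under 0.05, and their median log2 fold change was 0.23. DESeq2 called 0 higher and 2 lower, and limma voom 1 higher and 6 lower, where these tools called 3066 of 26824 and 8248 of 20167 genes. For KO 4 to KO 6 against WT, edgeR called 4 collagen genes higher and 7 lower, where 42.8% of all genes were called. Col1a1, a chain of the main fibrillar collagen, averaged 0.793 ± 0.230 CPM over 3 WT and 1.48 ± 0.550 CPM over 5 KO libraries (SD), with overlapping groups and an edgeR adjusted p of 0.155. Col5a3, a minor fibrillar chain, was at 3.43 to 4.62 CPM in WT and at 2.04 to 3.17 CPM in KO (log2 fold change -0.67, SE 0.19, edgeR adjusted p 0.0593). Col11a1, a chain of the fibrils of cartilage and vitreous, was at 10.3 to 13.3 CPM in WT and at 5.74 to 9.90 CPM in KO (-0.64, SE 0.20, edgeR adjusted p 0.0715). Both lay below WT in every KO library and did not pass the adjusted test, although Col5a3 passed after GC correction (-0.93, edgeR adjusted p 0.0159). Of the other collagen-modifying and cross-linking enzymes, 2 of 17 were called higher. Tgm2, a transglutaminase that cross-links proteins by a different bond, rose from 6.29 ± 0.269 CPM (SD, n = 3) to 11.5 ± 2.47 CPM (SD, n = 5). This was a rise of 0.87 on the log2 scale (SE 0.19, edgeR adjusted p 0.0293). Plod1, a lysyl hydroxylase that prepares collagen for cross-linking, rose by 0.76 on the log2 scale (SE 0.20, edgeR adjusted p 0.0451), with KO 3 at 16.5 CPM below the highest WT library at 17.3 CPM.

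Lysyl oxidases need copper, which the ATP7 pumps load in the secretory pathway. Of 7 genes of copper uptake and delivery, 1 was called, the pump Atp7b. It fell from 22.4 ± 1.42 CPM over 3 WT to 16.4 ± 1.68 CPM over 5 KO libraries (SD), a log2 fold change of -0.44 (SE 0.11, edgeR adjusted p 0.0431). Atp7a, the other pump, was at a mean of 16.5 CPM in WT and 16.6 CPM in KO (log2 fold change 0.01, edgeR adjusted p 0.955). Of the other copper amine oxidases, 2 were tested, and 0 had an unadjusted p under 0.05 in edgeR, DESeq2 or limma voom. Aoc2, known for its expression in retina, was at 4.74 ± 1.07 CPM in WT and 5.74 ± 0.734 CPM in KO (SD, n = 3 and n = 5), with a log2 fold change of 0.28 (SE 0.19).

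Lysyl oxidase genes are known targets of TGF-beta and hypoxia signalling. Of 13 TGF-beta genes, 1 was called higher, the signal transducer Smad3, with a log2 fold change of 0.37 (SE 0.10, edgeR adjusted p 0.0470) and an adjusted p of 0.134 after GC correction. Of 11 tested hypoxia response genes, 2 were called higher and 2 lower, and the median log2 fold change was -0.08. Epas1, a hypoxia-inducible factor subunit, rose from 153 ± 5.80 CPM to 238 ± 34.3 CPM (SD, n = 3 and n = 5), and the glucose transporter Slc2a1 from 192 ± 9.30 to 266 ± 19.5 CPM. Their edgeR adjusted p-values were 0.0243 and 0.0251, and that of Slc2a1 was 0.0513 after GC correction. Vegfa, the vessel growth factor, fell by 0.38 and the mitophagy receptor Bnip3 by 0.58 on the log2 scale (edgeR adjusted p 0.0317 and 0.0251).

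**Figure D4:**
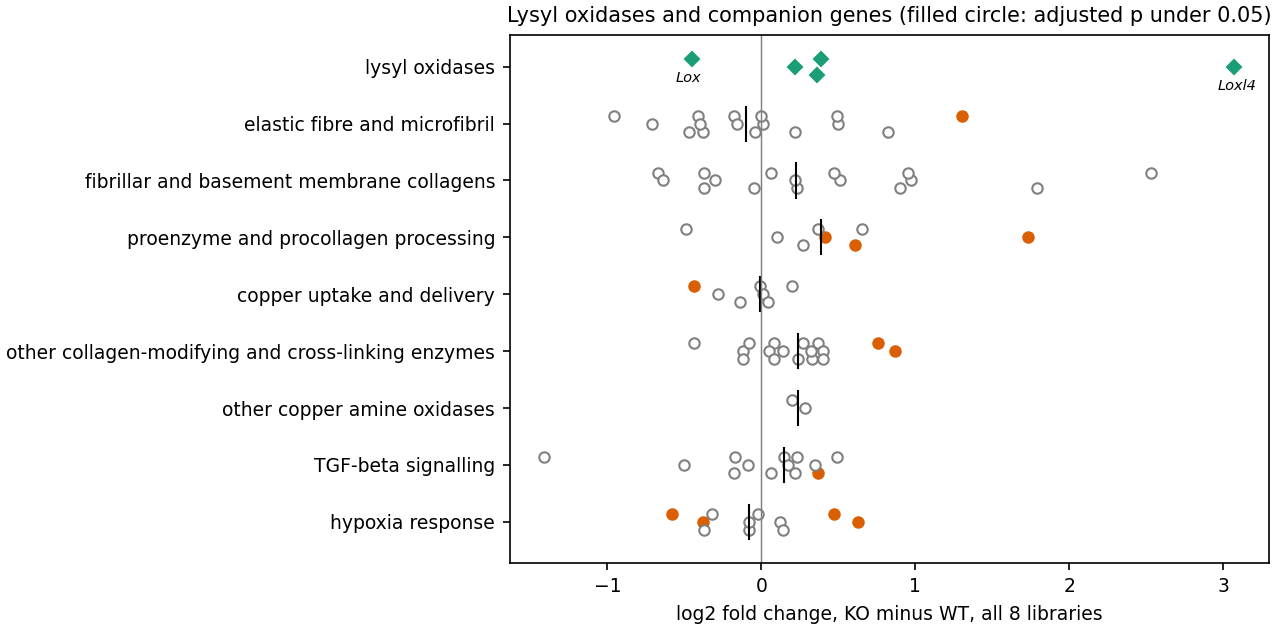
Log2 fold change (KO minus WT, all libraries) of each tested companion gene by list, with a black line at the list median and filled circles for an edgeR adjusted p under 0.05. The 5 lysyl oxidases are shown as diamonds with no test marked, and Loxl4 at 3.07 lies beyond every companion gene.

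A few markers of vessel cells and glia were called higher in KO, 1 or 2 of each list, where 4.74% of all tested genes were called higher. Endothelial markers summed to 230 to 235 CPM in WT and 280 to 396 CPM in KO, and 1 of 6, the growth factor receptor Kdr, was called higher (log2 fold change 0.92, SE 0.14, edgeR adjusted p 0.00738). Kdr was at 112 to 118 CPM in WT and 163 to 251 CPM in KO, and for each of the other 5 endothelial markers the groups overlapped. Pericyte markers summed to 88.9 to 100 CPM in WT and 106 to 127 CPM in KO, and 1 of 5, Pdgfrb, was called higher (0.93, SE 0.12, edgeR adjusted p 0.00402). Microglia markers summed to 27.1 to 34.5 CPM in WT and 39.8 to 50.2 CPM in KO, with 2 of 6, Tmem119 and Csf1r, called higher. After GC correction neither was called (edgeR adjusted p 0.0947 and 0.0552). Muller glia markers summed to 3077 to 3264 CPM in WT and 3085 to 4682 CPM in KO, with 2 of 6, Kcnj10 and Sox9, called higher. Of these 4 glial genes none was called for KO 2 and KO 3 (edgeR adjusted p 0.102 to 0.209). Cone markers had a median log2 fold change of -0.58, with 1 of 5 called higher, the phosphodiesterase subunit Pde6c (0.51, edgeR adjusted p 0.0251), and 1 lower, the transducin subunit Gngt2 (-0.60, edgeR adjusted p 0.0254). None of these markers was at 0 counts in any library. Their part in the Loxl4 difference was not tested.

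Genes whose pattern was most like Loxl4 were named by Pearson's r of log2 CPM with Loxl4 over the 8 libraries, among 16291 genes. Among them were Nin (r = 0.992), Pros1 (0.991), Gm3716 (0.990), Krt18 (0.990) and Zfat (0.989). The measure mostly reflects the step between WT and KO that chose Loxl4, and it is a description. Nin, a centrosomal anchoring protein, was at 72.9 ± 2.13 CPM in WT and 204 ± 22.5 CPM in KO, and Krt18, an intermediate filament keratin, at 29.8 ± 3.16 and 117 ± 19.3 CPM (SD, n = 3 and n = 5).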

How the data were processed

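Whole-retina RNA was sequenced. The authors deposited a table of estimated counts per gene as whole numbers, per the file headers one column per library, and the submitters' processing notes name Trim Galore, Salmon 1.10.2, DESeq2 and GRCm38. Strand setting and annotation are not given in the sources used here. Every gene in the table had at least 16 counts in total.

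The members and gene lists were chosen with earlier results of these data known. Libraries were normalised with edgeR's TMM factors, and counts were tested across all genes kept by filterByExpr with edgeR 4.0.16 (glmQLFit, glmQLFTest; R 4.3.3) on 3 WT and 5 KO libraries, with Benjamini-Hochberg adjustment and a threshold of 0.05. Standard errors are the fold change over the root of its F value. CPM is counts per 1000000 scaled counts, and 3 counts correspond to 0.130 to 0.164 CPM. The scripts were tested on simulated data. Named were all members, called list genes (at most 4 a list), the 6 genes most like Loxl4 (autosomal, mean log2 CPM of at least 0, prior count 2; 1 of them is not reported here) and Kcnv2; genes named outside this rule (Eln, Mfap4, Fmod, Dcn, Pdgfra, Ogn, Atp7a, Col1a1, Col5a3, Col11a1, Col4a1, Col4a2, Aoc2, Cryaa, called cell markers) were chosen after their values were seen. No 2 libraries of a group agreed within sampling noise (chi-square per degree of freedom of at least 5.38). Alternatives were DESeq2 1.42.0, limma 3.58.1, other scalings and filters, GC correction, sets of libraries and a replicate block.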

Additional observations from a re-analysis of the deposited data

Results flagged for a closer look

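One value among the 5 members was set apart by its gap from the rest of its group: Loxl2 in KO 3, whose log2 CPM lay above the other KO libraries by 0.772 of their whole range, past Dixon's limit of 0.71 for 5 samples. The 5 members were tested, and chance passes this limit in about 1 in 20 groups. KO 3 held 618 counts of Loxl2, or 29.4 CPM, and its lens markers took 4.01% of its counts. Whether lens RNA accounts for the gap was not tested.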

How the results depend on the processing

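Over 20 alternatives the log2 fold change of Loxl4 stayed between 2.82 and 3.24, and that of Loxl3 between 0.14 and 0.50 with no call. Lox depended on the libraries and the test. It was 0.27 for KO 2 and KO 3 against WT, 0.41 with the replicate block and 0.44 without the block on the same 4 libraries, but -1.30 for KO 4 to KO 6 and -1.21 in limma voom (adjusted p 0.0169), both called. It had no value with the filter of 1 CPM, and DESeq2 gave no adjusted p. Loxl1 was -0.0004 after GC correction. Loxl2 was -0.15 for KO 4 to KO 6, -0.043 in limma voom, and -0.063 to 0.51 when each library was left out. The cause of these shifts was not tested.

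Counts of called companion genes stand beside those of all genes called, which were 1529 with every library, 1353 with library size alone, 1094 without a filter, 1345 after GC correction, 3066 in DESeq2, 8248 in limma voom, 180 for KO 2 and KO 3, 8416 for KO 4 to KO 6, and 132 to 3992 when each library was left out. Companion genes called higher numbered 9. They were 5 with library size alone, 5 without a filter, 5 after GC correction, 23 in limma voom, 1 for KO 2 and KO 3, 27 for KO 4 to KO 6, and 0 to 13 when each library was left out. Those called lower numbered 3, and 5 in DESeq2, 26 in limma voom, 0 for KO 2 and KO 3, 28 for KO 4 to KO 6, and 0 to 8 when each library was left out. With the replicate block, and with no block on the same 4 libraries, 0 were called in either direction (52 and 14 of all genes). The labels do not say whether libraries with the same number were paired. Same-numbered libraries deviated with a correlation of -0.19. With 2 libraries a group, pairing WT 2 with KO 3 instead reverses the sign by construction, so this value cannot decide on pairing. The crossed pairing called 3 higher and 0 lower (527 of all genes).

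Lox rests on 6 to 31 counts a library, and its counting intervals are wide.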

Other observations

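Loxl4 shares chromosome 19 with Kcnv2. Of 581 tested genes on that chromosome, 52 were called in edgeR (8.95%), 40 higher and 12 lower, against 7.97% of all 18028 tested genes with a position. R3hcc1l, the neighbour that converges on the 3' end of Loxl4, had a log2 fold change of 0.35 (SE 0.09, edgeR adjusted p 0.0414) and was at a mean of 36.7 CPM in WT and 46.8 CPM in KO. On the other side, Pyroxd2 had a log2 fold change of 0.18 (SE 0.46, edgeR adjusted p 0.832) and Hps1 of -0.12 (SE 0.20, edgeR adjusted p 0.746). Whether sequence around Kcnv2 differs between the groups was not tested.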
